A study of Homo sapiens with 18 samples.

Results

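The 7 cytokine genes described here are CXCL1, CXCL2, CXCL3, CXCL8, IL1A, IL1B and CSF2. They were chosen by symbol, as inflammatory cytokines whose RNA glucocorticoids (GC) lower in many cell types. Earlier results of these data were known when this and the other gene lists were chosen. Counts of calls beside shares of all genes thus only describe these lists. All 7 cytokine genes were among the 60642 gene symbols of the count files. Of them 6 were among the 15298 genes with enough counts to test. The exception was CSF2, which was nearly silent.

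CXCL1, CXCL2, CXCL3 and CXCL8 are small secreted chemokines that attract neutrophils through the receptors CXCR1 and CXCR2. IL-1α and IL-1β, made from IL1A and IL1B, bind the receptor IL1R1 with its partner IL1RAP, and the adaptor MYD88 and kinases of the IRAK family pass the signal on to the transcription factor NF-κB, which switches on many cytokine genes, IL-1 included. Glucocorticoids act through the glucocorticoid receptor (GR, gene NR3C1), which dampens inflammation by restraining NF-κB and AP-1 at cytokine genes and by raising inhibitors of the pathway.

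RNA was sequenced from MDA-MB-231, a human triple-negative breast cancer (TNBC) cell line, after transfection of siRNA pools against HP1γ (siHP1γ) or PRMT5 (siPRMT5), or of a non-specific siRNA (siNS), at 25 nM for 48 h. Cells of each siRNA group then received 100 nM dexamethasone (Dex), a synthetic GC, or the vehicle ethanol (Eth) for 8 h. This gave 6 conditions (siNS Eth, siNS Dex, siHP1γ Eth, siHP1γ Dex, siPRMT5 Eth and siPRMT5 Dex) with 3 biological replicates each. The 18 libraries held from 8682992 to 12472381 counts. Levels are given as CPM, the counts of a gene scaled by the adjusted size of its library. This size is the total of the library multiplied by its TMM factor, which ran from 0.969 to 1.040. Values are in the order of replicates 1, 2 and 3 wherever 3 values follow each other.

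Depletion was seen in every library. CBX3, the gene of the chromatin protein HP1γ, averaged 256 ± 20.1 CPM in siNS Eth and 230 ± 10.3 in siNS Dex (SD, n = 3 for each mean in the text), against 9.23, 9.91 and 10.5 CPM in siHP1γ Eth and 15.8, 14 and 11.4 CPM in siHP1γ Dex. In siPRMT5 cells it stood at 225, 218 and 229 CPM with Eth and at 258, 288 and 227 CPM with Dex. Its log2 fold change was −4.69 with Eth (edgeR adjusted p = 1.21e-20) and −4.06 with Dex (adjusted p = 1.12e-19). PRMT5, which encodes an arginine methyltransferase, averaged 249 ± 20 CPM in siNS Eth and 239 ± 11.4 in siNS Dex. It stood at 8.37, 7.75 and 6.1 CPM in siPRMT5 Eth and at 11.5, 10.6 and 9.39 CPM in siPRMT5 Dex, with log2 fold changes of −5.08 (adjusted p = 3.50e-22) and −4.50 (adjusted p = 1.38e-21). PRMT5 was also slightly lower in siHP1γ cells, at 211, 206 and 209 CPM with Eth and 177, 199 and 189 CPM with Dex, by log2 −0.25 with Eth (adjusted p = 0.0111) and −0.35 with Dex (adjusted p = 0.00123).

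The libraries carried the markers of this line. The mesenchymal gene VIM averaged 8.36e+03 CPM and the adhesion receptor CD44 809 CPM in siNS Eth, whereas the hormone receptor genes ESR1 and PGR had 8 and 2 counts in all 18 libraries. ERBB2 averaged 25.8 ± 1.25 CPM in siNS Eth. Among 6 leukocyte markers, summed counts ran from 3 to 24 per library, the pan-leukocyte gene PTPRC had 8 counts and the T cell gene CD3E 1 count in all libraries together, and the most abundant was CD14 with 86. The leukocyte sum was 24, 22 and 24 counts in siHP1γ Eth, against 11, 8 and 4 in siNS Eth and 11, 4 and 12 in siPRMT5 Eth. With Dex it was 15, 4 and 9 in siNS, 15, 18 and 21 in siHP1γ and 9, 3 and 8 in siPRMT5. The higher sums of the siHP1γ libraries came with CSF1R, the M-CSF receptor, which was above siNS by log2 2.97 with Eth (adjusted p = 1.94e-04) and 1.52 with Dex (adjusted p = 0.0264). Of 6 fibroblast and endothelial markers, LUM was at 0 and DCN had 4 counts, while PECAM1 made up 689 counts and was higher with Dex in siNS cells (log2 1.67, adjusted p = 1.59e-05). The sum of these 6 ran from 18 to 27 counts in siNS Eth, 41 to 62 in siNS Dex, 31 to 39 in siHP1γ Eth, 48 to 53 in siHP1γ Dex, 30 to 41 in siPRMT5 Eth and 67 to 96 in siPRMT5 Dex, and its part in the cytokine results was not tested.

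The 4 CXC chemokine genes lie within 359 kb of chromosome 4 and the 2 IL-1 genes within 62.9 kb of chromosome 2 (hg38). CXCL8 (chr4:73740519-73743716) and CXCL1 (chr4:73869393-73871308) are on the plus strand, and CXCL3 (chr4:74036589-74038807) and CXCL2 (chr4:74097040-74099196) on the minus strand, each with 4 exons. IL1A (chr2:112773925-112784493) and IL1B (chr2:112829751-112836816) are on the minus strand with 7 exons each, and CSF2 (chr5:132073789-132076170) is on the plus strand with 4. No annotated gene overlaps them. In a search for copies of at least 50 bases with 95% identity or more, 124 of the 1362 exonic bases of CXCL1 (9.1%) matched CXCL2 at 96.8% and CXCL3 at 95.2%, and the matched stretches lie wholly within exons of CXCL2 and CXCL3, so reads from this stretch may be split among these 3 genes. Searches with the exons of CXCL2 and CXCL3, which some transcripts extend into introns, returned no alignment at this limit. They returned longer ones, of CXCL2 and CXCL3 with each other and with CXCL1, over 669 to 899 bases at 90.7 to 93.4% identity. These searches thus did not list the 124 bases that match CXCL1. For CXCL8 51 of 2588 exonic bases (1.97%) had such a copy elsewhere in the genome, and no copy was found for IL1A, IL1B or CSF2.

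The promoters of the 3 most alike chemokines were more similar over the stretch shown here than over the whole promoter, and no other window was compared. The promoter of CXCL8 shares their best-known element. For these reasons the stretches are shown. The sequences are RefSeq's (GRCh38.p14), 5′ to 3′ on the strand of each gene, from base −140 to base −41 before the start for the chemokines and from −100 to −1 for IL1A. Capitals mark matches to GGNNNTTCC, a form of the NF-κB motif, or to TGANTCA, the AP-1 motif. CXCL1 is at chr4:73869253-73869352, CXCL2 at chr4:74099236-74099335 and CXCL3 at chr4:74038730-74038829. CXCL8 is at chr4:73740429-73740528 and IL1A at chr2:112784494-112784593.
CXCL1: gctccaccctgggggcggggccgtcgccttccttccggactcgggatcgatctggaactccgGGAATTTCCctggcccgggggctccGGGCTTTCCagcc
CXCL2: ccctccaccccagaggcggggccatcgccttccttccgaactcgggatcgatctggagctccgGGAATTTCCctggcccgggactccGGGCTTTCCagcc
CXCL3: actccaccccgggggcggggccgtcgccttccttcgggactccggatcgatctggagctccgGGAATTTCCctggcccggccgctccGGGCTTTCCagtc
CXCL8: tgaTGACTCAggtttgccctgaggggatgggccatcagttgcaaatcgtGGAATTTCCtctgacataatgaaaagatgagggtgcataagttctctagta
IL1A: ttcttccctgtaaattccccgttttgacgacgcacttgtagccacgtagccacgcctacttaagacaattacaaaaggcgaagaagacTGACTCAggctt

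Over these 100 bases CXCL1 was 92% identical to CXCL3 and 90.1% to CXCL2, and CXCL2 was 88.1% identical to CXCL3, whereas CXCL8 was 42.6 to 44.6% identical to the other 3. Over the whole 300 bases of each promoter CXCL1 was 82.5% identical to CXCL3 and 72.1% to CXCL2, CXCL2 was 73.8% identical to CXCL3, and CXCL8 was 42.6 to 44.9% identical to these 3. The 9 letters GGAATTTCC stood at −78 in CXCL1 and CXCL3, at −77 in CXCL2 and at −91 in CXCL8, and GGGCTTTCC stood at −53 in CXCL1, CXCL2 and CXCL3. Searched on both strands of 27305 promoters, from 250 bases before to 50 after the start, GGNNNTTCC was found in 20.1% and GGAATTTCC in 0.472%. TGANTCA was found in 7.76% of promoters, among them CXCL8 at −137 and IL1A at −12 and 39. CXCL2 alone of the 7 held AGAACA, an arm of the GR element present in 14.9% of promoters, at −212. TATAAA, found in 12% of promoters, stood at −31 in CXCL8 and at −239 in IL1A. CSF2 held GGAGATTCC at −102 and GGTAGTTCC at −85, and IL1B held none of the 4 motifs in this window. A match shows letters only, and binding was not measured.

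CXCL1, a ligand of CXCR2, spanned the widest relative range of the chemokines, from 2.9 to 22.2 CPM. In siNS cells CXCL1 stood at 7.62, 5.91 and 6.94 CPM with Eth and at 5.12, 6.1 and 7.16 CPM with Dex. In siHP1γ cells CXCL1 stood at 11.5, 13.4 and 12 CPM with Eth and at 22.2, 17.8 and 18.1 CPM with Dex. In siPRMT5 cells CXCL1 stood at 2.9, 2.94 and 4.1 CPM with Eth and at 5.86, 6.82 and 4.75 CPM with Dex. Thus every siPRMT5 Eth library lay below the other 15, and the siHP1γ Eth and then the siHP1γ Dex libraries lay above all others without overlap. The siNS Eth, siNS Dex and siPRMT5 Dex libraries overlapped in between.

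CXCL2, a second CXCR2 ligand, had 652 counts in all and as few as 8 in a library. In siNS cells CXCL2 stood at 2.1, 2.75 and 3.42 CPM with Eth and at 3, 2.72 and 3.08 CPM with Dex. In siHP1γ cells CXCL2 stood at 3.92, 4.02 and 5.31 CPM with Eth and at 4.49, 4.79 and 5.08 CPM with Dex. In siPRMT5 cells CXCL2 stood at 2.15, 0.939 and 1 CPM with Eth and at 5.67, 4.36 and 3.62 CPM with Dex. The levels formed a lower group of siPRMT5 Eth, siNS Eth and siNS Dex and an upper group of siHP1γ Eth, siPRMT5 Dex and siHP1γ Dex, with overlap between neighbours inside each group and none between the groups.

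CXCL3, the third of these close relatives, had 362 counts in all and 11 to 38 per library. It averaged 1.37 ± 0.203 CPM in siNS Eth, 1.39 ± 0.131 in siNS Dex and 1.48 ± 0.364 in siPRMT5 Eth, and these 3 conditions overlapped. The averages of siPRMT5 Dex (2.08 ± 0.061), siHP1γ Dex (2.3 ± 0.4) and siHP1γ Eth (3.02 ± 0.506) were higher, and no library of these 3 reached down to the first 3.

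CXCL8, which encodes interleukin-8, a ligand of CXCR1 and CXCR2, had 4874 counts in all. In siNS cells CXCL8 stood at 26.2, 25.8 and 23.1 CPM with Eth and at 11.9, 12 and 11.9 CPM with Dex. In siHP1γ cells CXCL8 stood at 40.2, 47.6 and 46.1 CPM with Eth and at 41.3, 30.3 and 34.4 CPM with Dex. In siPRMT5 cells CXCL8 stood at 21.1, 26.3 and 25.8 CPM with Eth and at 15.4, 16 and 17.2 CPM with Dex. The siNS Dex libraries were lowest, followed by siPRMT5 Dex, then by siPRMT5 Eth and siNS Eth, which overlapped, and by siHP1γ Dex and siHP1γ Eth, which overlapped each other and lay above all the rest.

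IL1A, whose IL-1α acts as an alarm signal from epithelial and tumour cells, had 13762 counts in all. In siNS cells IL1A stood at 95.7, 94.8 and 94.3 CPM with Eth and at 48.4, 56.7 and 63.7 CPM with Dex. In siHP1γ cells IL1A stood at 135, 138 and 138 CPM with Eth and at 93, 86.4 and 92 CPM with Dex. In siPRMT5 cells IL1A stood at 37.2, 31.8 and 31.3 CPM with Eth and at 35.6, 32.9 and 29.9 CPM with Dex. The siPRMT5 conditions, which overlapped each other, lay below every other library. The order siNS Dex, siHP1γ Dex, siNS Eth and siHP1γ Eth followed, with all libraries of these 4 conditions apart.

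IL1B, whose IL-1β is released after cleavage by caspase-1, had 5778 counts in all. In siNS cells IL1B stood at 36.8, 35.8 and 34.9 CPM with Eth and at 21, 18.5 and 21.5 CPM with Dex. In siHP1γ cells IL1B stood at 55.7, 50.8 and 51.3 CPM with Eth and at 29.4, 24.8 and 27.5 CPM with Dex. In siPRMT5 cells IL1B stood at 32.8, 30.1 and 25.9 CPM with Eth and at 27.1, 22 and 21.3 CPM with Dex. The siHP1γ Eth and siNS Eth libraries were the highest and stood apart, whereas siNS Dex, siPRMT5 Dex, siHP1γ Dex and siPRMT5 Eth each overlapped their neighbour in the order.

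CSF2, which encodes the myeloid growth factor GM-CSF, had 30 counts in all 18 libraries. Its counts were 0, 0 and 1 in siNS Eth, 0, 2 and 0 in siNS Dex, 5, 2 and 4 in siHP1γ Eth, 0, 1 and 2 in siHP1γ Dex, 3, 4 and 2 in siPRMT5 Eth and 1, 1 and 2 in siPRMT5 Dex. CSF2 was not tested because of these counts. In a fit without any filter on low counts its adjusted p was 0.0876 for siHP1γ Eth against siNS Eth (log2 2.96) and 0.102 for siPRMT5 Eth against siNS Eth (log2 2.84). It was 0.554 or more in the other comparisons, so no change of CSF2 was called. Its libraries did not overlap in the first 2 comparisons, like those of 45.5% and 49.1% of all genes tested.

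**Figure D1:**
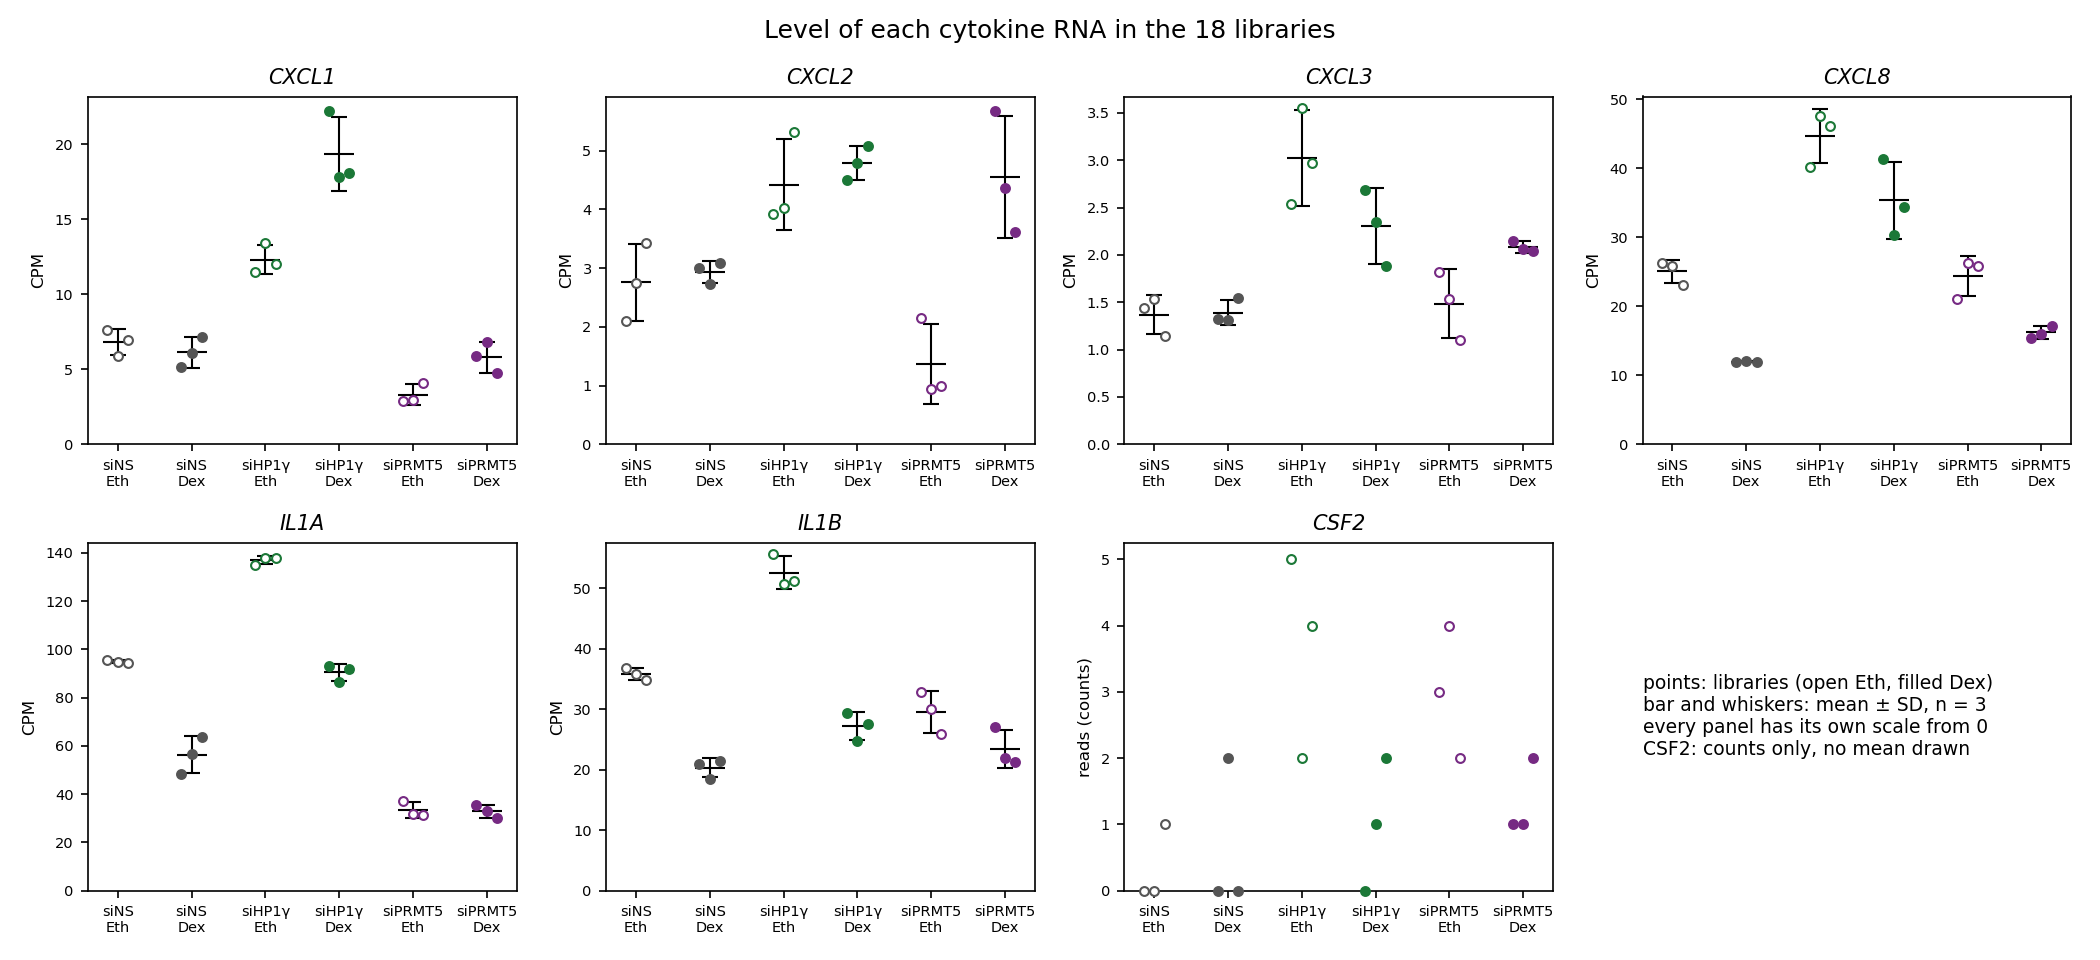
Level of each cytokine RNA in the 18 libraries, in CPM for 6 genes and in raw counts for CSF2, by condition. Points are libraries (open Eth, filled Dex) and the bar with whiskers is the mean ± SD (n = 3). CXCL8 averages 25 CPM in siNS Eth and 11.9 in siNS Dex, against 44.6 in siHP1γ Eth and 35.3 in siHP1γ Dex. IL1A is at 37.2 CPM or less in all 6 siPRMT5 libraries.

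The first comparison asked how Dex acted on these genes in cells with both proteins present. CXCL8, IL1A and IL1B fell with Dex in siNS cells, while CXCL1, CXCL2 and CXCL3 did not pass the test. CXCL8 fell the most, with a log2 fold change of −1.07 (SE 0.122, adjusted p = 4.47e-07) and a fold of 0.477. IL1A fell by log2 −0.76 (SE 0.0864, adjusted p = 4.21e-07) and IL1B by log2 −0.81 (SE 0.105, adjusted p = 3.01e-06). For these 3 genes every Dex library lay below every Eth library, and for 27.9% of all genes tested the 2 groups did not overlap either, where chance gives 10% for 3 libraries against 3. The values for CXCL1, CXCL2 and CXCL3 were log2 −0.15 (adjusted p = 0.664), 0.09 (adjusted p = 0.88) and 0.03 (adjusted p = 0.972), with overlapping libraries. A gene was called changed by Dex at an adjusted p under 0.01 with a fold change of at least 1.5, which held for 3 of the 6 tested cytokines and for 2.71% of all genes tested. The median log2 fold change of the 6 was −0.45, against 0.004 for all genes. In bulk RNA, fewer cells that make a transcript and less of it per cell cannot be told apart. An exact two-sided permutation test of 3 libraries against 3 cannot go below p = 0.1, which is the value that each of the 3 called genes reached.

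In siHP1γ cells Dex lowered IL1A and IL1B and raised CXCL1. CXCL1 rose by log2 0.66 (SE 0.133, adjusted p = 0.00191), a fold of 1.58, IL1A fell by log2 −0.60 (SE 0.0826, adjusted p = 1.41e-05) and IL1B fell by log2 −0.94 (SE 0.0979, adjusted p = 1.64e-07). CXCL8 was not called, with log2 −0.33 (adjusted p = 0.0536) and overlapping libraries, and neither were CXCL2 (log2 0.10, adjusted p = 0.856) and CXCL3 (log2 −0.39, adjusted p = 0.358). The share of all genes called was 1.67%, and the median of the 6 was log2 −0.36 against −0.002 for all genes. The CXCL1 call was lost without siHP1γ Eth replicate 1 (adjusted p = 0.0162), siHP1γ Dex replicate 1 (adjusted p = 0.0167) or siHP1γ Eth replicate 3 (adjusted p = 0.0148). That of IL1A, close to the 1.5-fold limit, was lost without siHP1γ Dex replicate 2 (log2 −0.56, adjusted p = 3.55e-04) and when libraries were scaled by their size alone (log2 −0.58).

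In siPRMT5 cells Dex raised CXCL1 and CXCL2 and lowered CXCL8, whereas IL1A was not called. CXCL2 rose by log2 1.73 (SE 0.271, adjusted p = 2.95e-05), a fold of 3.33 from the low level of siPRMT5 Eth. CXCL1 rose by log2 0.82 (SE 0.202, adjusted p = 0.00495), a fold of 1.76, and CXCL8 fell by log2 −0.59 (SE 0.118, adjusted p = 6.36e-04), a fold of 0.664. IL1A was at log2 −0.03 (SE 0.0967, adjusted p = 0.902), and IL1B (log2 −0.33, adjusted p = 0.0306) and CXCL3 (log2 0.49, adjusted p = 0.252) were not called. The share of all genes called was 5.44%, and the median of the 6 was log2 0.23 against −0.001 for all genes. The CXCL1 call was lost without siPRMT5 Eth replicate 1 (adjusted p = 0.0342) or 2 (adjusted p = 0.0305), without siPRMT5 Dex replicate 1 (adjusted p = 0.0125) or 2 (adjusted p = 0.0449), and with the libraries of this comparison alone (adjusted p = 0.0131). CXCL8 lay at the 1.5-fold limit and dropped under it without any of 13 libraries (log2 −0.68 to −0.54 over all 18, adjusted p of 0.00644 or less), the exceptions being siPRMT5 Eth 1, siHP1γ Eth 2, siNS Dex 2, siNS Eth 3 and siPRMT5 Dex 3.

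The difference between the Dex responses was then tested itself, as an interaction. HP1γ depletion changed the response of CXCL8 (log2 difference 0.73, SE 0.159, adjusted p = 0.0361), the 1 of 6 cytokines called where 0.399% of all genes were. This share stands for 61 genes, and 20 to 186 were called with 1 library left out. The median of the 6 was log2 0.08 against −0.012 for all genes. For CXCL1 the difference was log2 0.81 (SE 0.22, adjusted p = 0.0929), and for IL1A (0.16, adjusted p = 0.528), IL1B (−0.13, adjusted p = 0.681), CXCL2 (0.01, adjusted p = 0.989) and CXCL3 (−0.42, adjusted p = 0.611) no difference was called. The CXCL8 call was lost without siNS Eth replicate 1 (adjusted p = 0.122) or 3 (0.0581), siNS Dex replicate 1 (0.102), 2 (0.0679) or 3 (0.123), siHP1γ Eth replicate 1 (0.123) or 3 (0.0642), or siHP1γ Dex replicate 1 (0.0836), with log2 differences from 0.61 to 0.80 in these 8 fits. That of CXCL1 passed without a filter on low counts (adjusted p = 0.0346).

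PRMT5 depletion changed the responses of IL1A (log2 difference 0.73, SE 0.13, adjusted p = 0.00167), CXCL2 (1.64, SE 0.377, adjusted p = 0.0122) and CXCL1 (0.97, SE 0.268, adjusted p = 0.0393). These were 3 of the 6 tested cytokines, where 3.80% of all genes were called, and the median of the 6 was log2 0.60 against −0.003 for all genes. The share of 3.80% stands for 582 genes, and 319 to 897 were called with 1 library left out. No difference was called for CXCL8 (0.48, SE 0.171, adjusted p = 0.119), IL1B (0.48, SE 0.149, adjusted p = 0.0691) or CXCL3 (0.46, adjusted p = 0.593). The CXCL1 call was lost without siNS Eth replicate 1 (adjusted p = 0.104) or 3 (0.0866), siNS Dex replicate 1 (0.103) or 2 (0.063), siPRMT5 Eth replicate 1 (0.103) or 2 (0.106), or siPRMT5 Dex replicate 1 (0.0637) or 2 (0.127), and the CXCL2 call without siNS Eth replicate 3 (0.0571). That of IL1B passed without siPRMT5 Eth replicate 1 (0.0452), siHP1γ Dex replicate 1 (0.0429) or siPRMT5 Dex replicate 3 (0.0473).

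The comparisons of siRNA groups share the siNS libraries with each other and with the Dex comparison in siNS cells, so their values are set side by side and not counted as separate support. Here a gene was called at an adjusted p under 0.05, with no limit on the fold. HP1γ depletion raised all 6 tested cytokines in vehicle, where 31.8% of all genes were called. CXCL3 rose the most, by log2 1.14 (SE 0.246, adjusted p = 8.04e-04), followed by CXCL1 with log2 0.85 (SE 0.157, adjusted p = 1.66e-04) and CXCL8 with log2 0.84 (SE 0.107, adjusted p = 1.48e-06). CXCL2 rose by log2 0.68 (adjusted p = 0.0278), IL1B by 0.55 (adjusted p = 8.87e-05) and IL1A by 0.53 (adjusted p = 2.35e-05). For each of the 6, all siHP1γ Eth libraries lay above all siNS Eth libraries, and 45.5% of all genes tested did not overlap between these groups in either direction. The median log2 fold change of the 6 was 0.76 against 0.013 for all genes. The CXCL2 call was lost without siNS Eth replicate 1 (adjusted p = 0.14) or 2 (0.0657) or siHP1γ Eth replicate 3 (0.159), and with DESeq2 (0.0588).

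With Dex the same 6 cytokines were higher in siHP1γ than in siNS cells, where 24.0% of all genes were called. None of the 6 overlapped between the groups, and neither did 36.9% of all genes tested. CXCL1 rose by log2 1.67 (SE 0.148, adjusted p = 5.29e-09) and CXCL8 by log2 1.57 (SE 0.117, adjusted p = 2.61e-10), which are folds of 3.17 and 2.97. IL1A rose by log2 0.69 (SE 0.0859, adjusted p = 1.39e-06) and IL1B by 0.42 (SE 0.106, adjusted p = 0.00471). CXCL2 (log2 0.69, adjusted p = 0.0233) and CXCL3 (log2 0.73, adjusted p = 0.0337) passed with larger adjusted p, and the median of the 6 was log2 0.71 against 0.005 for all genes. The CXCL2 call was lost without siNS Dex replicate 1 (adjusted p = 0.0579), 2 (0.0793) or 3 (0.0528) or siHP1γ Dex replicate 2 (0.0518) or 3 (0.0588), and with DESeq2 (0.0506). The CXCL3 call was lost without siNS Dex replicate 1 (0.0991), 2 (0.0959) or 3 (0.0559) or siHP1γ Dex replicate 1 (0.165) or 2 (0.0712), and also with DESeq2 (0.131), without a filter (0.11) and with the libraries of the comparison alone (0.0656).

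PRMT5 depletion lowered IL1A, CXCL1, CXCL2 and IL1B in vehicle, where 42.1% of all genes were called. IL1A fell by log2 −1.50 (SE 0.0912, adjusted p = 1.11e-12), to a fold of 0.353, and CXCL1 by log2 −1.03 (SE 0.2, adjusted p = 1.70e-04). CXCL2 fell by log2 −1.01 (SE 0.303, adjusted p = 0.00859), although its siPRMT5 Eth replicate 1 (2.15 CPM) reached into the siNS Eth range, and IL1B fell by log2 −0.28 (SE 0.102, adjusted p = 0.0315). CXCL8 (log2 −0.04, adjusted p = 0.835) and CXCL3 (log2 0.11, adjusted p = 0.819) overlapped with siNS Eth and were not called. The median of the 6 was log2 −0.64 against 0.000 for all genes. The CXCL2 call was lost without siNS Eth replicate 3 (adjusted p = 0.0583) or siPRMT5 Eth replicate 3 (0.0566). The IL1B call was lost without siNS Eth replicate 1 (0.0749) or 2 (0.0598) or siPRMT5 Eth replicate 2 (0.0543) or 3 (0.189), with scaling by library size alone (0.0527) and without a filter (0.0631).

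With Dex the picture of PRMT5 depletion was mixed, where 42.4% of all genes were called. IL1A was lower than in siNS Dex by log2 −0.78 (SE 0.0921, adjusted p = 1.91e-07), while CXCL8 was higher by log2 0.44 (SE 0.128, adjusted p = 0.00679) and CXCL2 by log2 0.63 (SE 0.225, adjusted p = 0.026). CXCL3 (log2 0.57, adjusted p = 0.0822), IL1B (0.20, adjusted p = 0.137) and CXCL1 (−0.06, adjusted p = 0.829) were not called, although the CXCL3 libraries did not overlap, like those of 51.5% of all genes tested. The median of the 6 was log2 0.32 against 0.002 for all genes. The CXCL2 call was lost without siNS Dex replicate 1 (adjusted p = 0.0554) or 2 (0.0702) or siPRMT5 Dex replicate 1 (0.149), and with DESeq2 (0.0587).

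Set against each other, siPRMT5 cells had less of all 6 tested cytokines than siHP1γ cells with Eth and less of 3 with Dex, where 48.4% and 49.9% of all genes were called. The medians of the 6 were log2 −1.36 and −0.67, against −0.001 and −0.002 for all genes. With Eth the log2 differences were −2.03 for IL1A (adjusted p = 2.33e-15), −1.88 for CXCL1 (adjusted p = 3.73e-09), −1.69 for CXCL2 (adjusted p = 1.32e-05), −1.04 for CXCL3 (adjusted p = 0.00101), −0.87 for CXCL8 (adjusted p = 2.43e-07) and −0.83 for IL1B (adjusted p = 1.46e-07). With Dex CXCL1 differed by log2 −1.72 (adjusted p = 5.17e-10), IL1A by −1.46 (adjusted p = 9.76e-13) and CXCL8 by −1.13 (adjusted p = 6.30e-09). CXCL2 (−0.06, adjusted p = 0.824) and CXCL3 (−0.15, adjusted p = 0.609) were not called there, and IL1B (−0.22, adjusted p = 0.0857) passed without siPRMT5 Dex replicate 1 (adjusted p = 0.0204) and with scaling by library size alone (adjusted p = 0.0313).

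**Figure D2:**
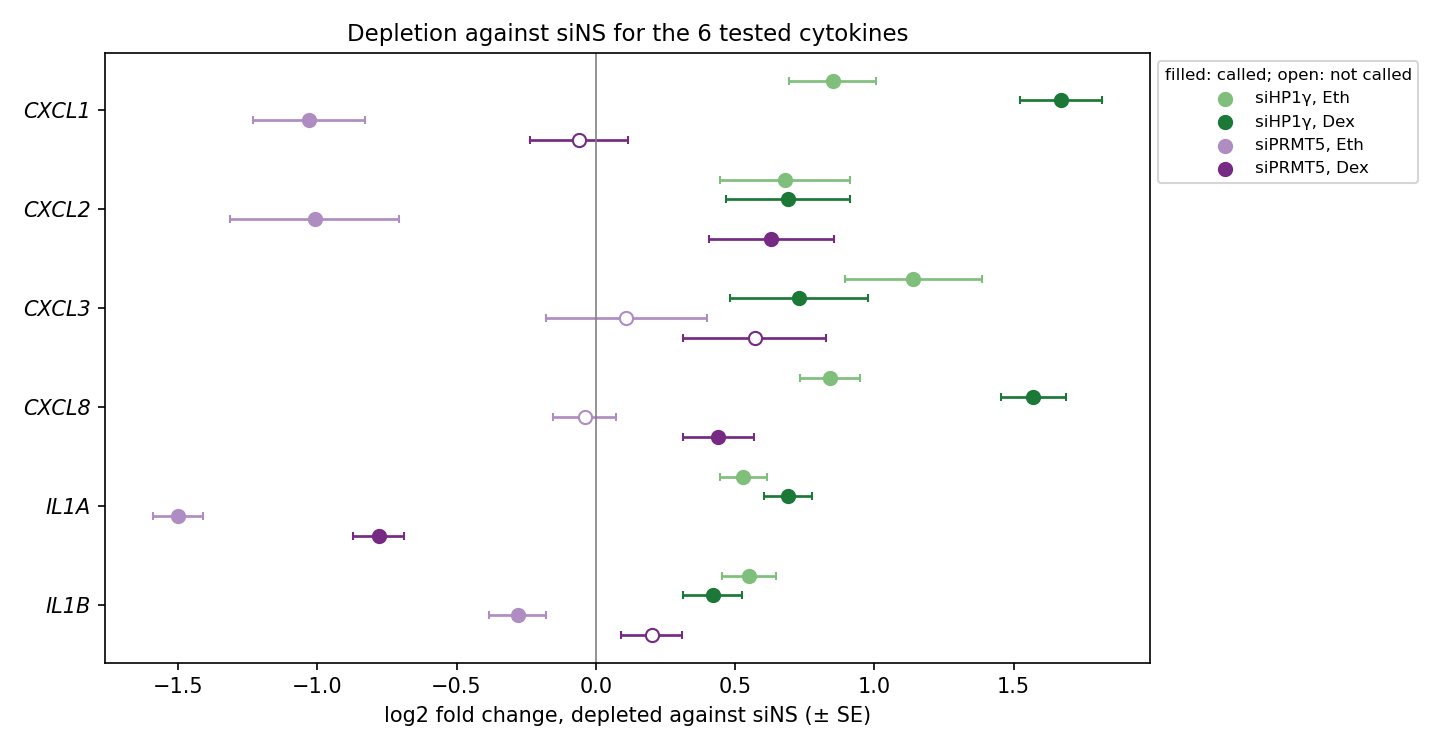
Log2 fold change of siHP1γ and siPRMT5 cells against siNS cells for the 6 tested cytokines, with Eth and with Dex, as estimate ± SE (filled points were called). All 12 siHP1γ values lie above 0, whereas IL1A in siPRMT5 cells lies at −1.50 with Eth and −0.78 with Dex.

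Of the receptors for these ligands, only the IL-1 receptor chains IL1R1 and IL1RAP had enough counts to test. CXCR1 and CXCR2 had 4 and 1 counts in all 18 libraries and the decoy receptor IL1R2 had 23. The GM-CSF receptor genes CSF2RA and CSF2RB were listed with 0 and 3. A listed 0 does not show absence in these files, for the reason given below with the other chemokine genes. IL1R1 rose with Dex in every siRNA group, from 3.43 ± 0.64 to 17.4 ± 1.9 CPM in siNS, from 7.93 ± 0.299 to 26.3 ± 0.374 in siHP1γ and from 4.78 ± 0.146 to 30.1 ± 2.42 in siPRMT5 cells. The log2 fold changes were 2.34 (SE 0.14, adjusted p = 1.94e-12), 1.73 (SE 0.112, adjusted p = 1.92e-11) and 2.65 (SE 0.125, adjusted p = 7.82e-15), and no interaction was called. IL1R1 was also higher than in siNS cells after HP1γ depletion, by log2 1.20 with Eth (adjusted p = 2.09e-06) and 0.59 with Dex (adjusted p = 8.55e-05), and after PRMT5 depletion, by 0.47 (adjusted p = 0.0327) and 0.79 (adjusted p = 5.68e-07). Its partner IL1RAP was lower in siHP1γ cells, by log2 −1.30 with Eth (adjusted p = 1.53e-07) and −1.25 with Dex (adjusted p = 3.77e-07). In siPRMT5 cells it was higher with Eth (log2 0.73, adjusted p = 2.43e-05) and fell with Dex (log2 −0.68, adjusted p = 1.39e-04).

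Among 15 tested genes of IL-1 receptor signalling, the Dex-raised gene in all 3 siRNA groups was IRAK3, which encodes an inhibitory member of the IRAK family. It rose from 17.5 ± 2.3 to 38 ± 2.79 CPM in siNS (log2 1.12, adjusted p = 1.01e-07), from 19.8 ± 2.04 to 36.1 ± 4.64 in siHP1γ (0.86, adjusted p = 7.80e-06) and from 10.9 ± 1.26 to 46.8 ± 4.54 in siPRMT5 cells (2.10, adjusted p = 1.04e-12). The kinase gene IRAK2 fell with Dex in siPRMT5 cells (log2 −0.65, adjusted p = 1.81e-06), and no other of the 15 was called for Dex, with a median of log2 0.02 in siNS cells. Of all genes 2.71%, 1.67% and 5.44% were called for Dex in siNS, siHP1γ and siPRMT5 cells. PRMT5 depletion lowered the adaptor MYD88, from 58.2 ± 3.68 to 30.3 ± 1.45 CPM with Eth (log2 −0.94, adjusted p = 1.01e-08) and by log2 −0.81 with Dex (adjusted p = 1.12e-07), and the kinase IRAK1 by log2 −0.71 (adjusted p = 1.11e-07) and −0.61 (adjusted p = 1.10e-06), while IRAK2 was higher with Eth (log2 0.73, adjusted p = 1.22e-07). In all, 5 of the 15 were higher and 4 lower in siPRMT5 Eth, where 20.6% of all genes were higher and 21.6% lower, and 7 were higher and 3 lower in siPRMT5 Dex, where 20.6% and 21.9% were. In siHP1γ cells 5 were higher with Eth, where 16.5% of all genes were, and 3 with Dex, where 11.7% were. None was lower, where 15.2% and 12.3% of all genes were. Among them was IRAK2, at log2 0.72 (adjusted p = 3.80e-07) and 0.78 (adjusted p = 2.06e-07).

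Among 12 genes of the NF-κB family and its regulators, Dex raised the inhibitor NFKBIA and the ubiquitin-editing enzyme TNFAIP3 in every siRNA group. NFKBIA went from 35.5 ± 2.43 to 88.3 ± 4.82 CPM in siNS (log2 1.31, adjusted p = 1.87e-11), from 54.5 ± 4.92 to 105 ± 3.94 in siHP1γ (0.94, adjusted p = 9.22e-09) and from 44.6 ± 4.78 to 133 ± 8.14 in siPRMT5 cells (1.57, adjusted p = 1.73e-13). TNFAIP3 rose by log2 1.01 (adjusted p = 2.72e-08), 0.86 (adjusted p = 3.70e-07) and 1.41 (adjusted p = 7.13e-12) in the same order. In siPRMT5 cells Dex also lowered the NF-κB subunit gene NFKB2 (log2 −0.82, adjusted p = 6.98e-06), the coregulator BCL3 (−0.73, adjusted p = 0.00267) and the inhibitor NFKBIE (−0.64, adjusted p = 2.89e-04). No other of the 12 was called for Dex, with 2.71%, 1.67% and 5.44% of all genes called in the 3 groups. HP1γ depletion raised 8 of the 12 with Eth, where 16.5% of all genes were higher and 15.2% lower, and lowered none. With Dex it raised 3 and lowered none, where 11.7% of all genes were higher and 12.3% lower. The medians were log2 0.39 and 0.16 against 0.013 and 0.005 for all genes. The subunit genes RELB and NFKB2 led, at log2 0.87 (adjusted p = 2.48e-04) and 0.83 (adjusted p = 3.82e-06) with Eth. PRMT5 depletion raised 7 with Eth, led by BCL3 (log2 0.84, adjusted p = 3.28e-04), and 4 with Dex, led by TNFAIP3 (log2 0.80, adjusted p = 4.66e-08), and lowered none. Of all genes 20.6% were higher and 21.6% lower with Eth, and 20.6% and 21.9% with Dex.

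**Figure D3:**
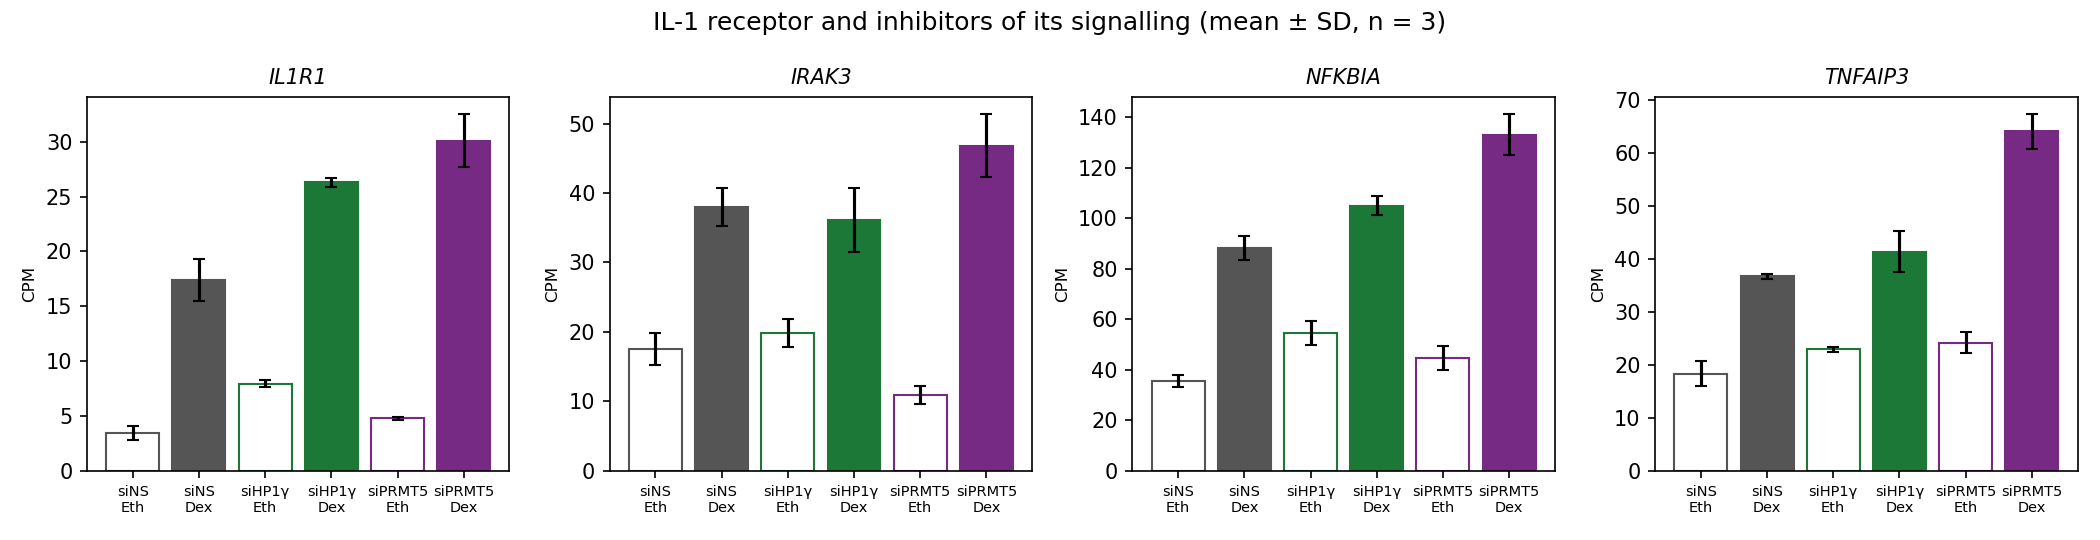
Levels of the IL-1 receptor gene IL1R1 and of IRAK3, NFKBIA and TNFAIP3, which restrain its signalling, in CPM by condition, as bars of the mean with ± SD (n = 3). Each is higher with Dex than with Eth in every siRNA group, and siPRMT5 Dex is highest, with NFKBIA at 133 CPM and IL1R1 at 30.1 CPM.

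Of 17 listed genes of the IL-1 family and its processing, 6 had enough counts to test and 4 were listed at 0, among them the pore-forming GSDMD. The others had few counts, such as 2 for the receptor antagonist IL1RN and 63 for caspase-1 (CASP1) in all libraries. None of the 6 was called for Dex in any siRNA group. IL18, a relative of IL-1β, was higher in siHP1γ cells (log2 0.53 with Eth, adjusted p = 2.45e-04, and 0.64 with Dex, adjusted p = 3.65e-05) and lower in siPRMT5 cells (−0.36, adjusted p = 0.00977, and −0.38, adjusted p = 0.00704). CAPN2, which encodes a subunit of calpain, the protease family that cleaves the IL-1α precursor, averaged 684 ± 6.7 CPM in siNS Eth and 421 ± 6.96 in siPRMT5 Eth (log2 −0.70, adjusted p = 1.03e-10), and was also lower with Dex (−0.78, adjusted p = 1.32e-11). The inflammasome sensor NLRP1 was higher in both depletions, with Eth by log2 0.65 in siHP1γ (adjusted p = 7.72e-07) and 0.88 in siPRMT5 cells (adjusted p = 1.51e-09), and with Dex, by 0.40 (adjusted p = 5.70e-04) and 0.54 (adjusted p = 4.81e-06).

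Of 23 other chemokine genes, 12 were listed at 0 counts, 9 had from 1 to 60 counts and only CXCL16 and CCL28 could be tested. A count of 0 does not show absence in these files, since the housekeeping genes TUBB and CSNK2B, looked up after the values were seen, were listed at 0 as well. CXCL16, a transmembrane chemokine, was lower in siPRMT5 cells, by log2 −1.32 with Eth (adjusted p = 0.00657) and −2.13 with Dex (adjusted p = 1.60e-04). CCL28 was not called in the Dex or siNS comparisons.

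Among 12 tested genes of other inflammatory mediators, IL11, a cytokine of the IL-6 family, fell with Dex in all 3 siRNA groups, from 30.5 ± 1.82 to 6.88 ± 0.852 CPM in siNS (log2 −2.14, adjusted p = 2.30e-13), by log2 −1.76 in siHP1γ (adjusted p = 7.58e-12) and by −2.92 in siPRMT5 cells (adjusted p = 5.05e-12). IL24, a cytokine of the IL-10 family, fell in siHP1γ cells (log2 −1.79, adjusted p = 6.31e-04) and the gelatinase MMP9 in siPRMT5 cells (−1.15, adjusted p = 0.00258). The collagenase MMP1 fell in siNS (log2 −1.19, adjusted p = 6.19e-09) and siHP1γ cells (−1.15, adjusted p = 1.62e-08), and the macrophage growth factor CSF1 fell in all 3 groups, by log2 −1.05 in siPRMT5 cells (adjusted p = 1.14e-11). The granulocyte growth factor CSF3 rose with Dex in each group, by log2 0.93 in siNS (adjusted p = 1.57e-04), 0.81 in siHP1γ (adjusted p = 3.87e-04) and 1.18 in siPRMT5 cells (adjusted p = 5.54e-07). Counted by direction, 1 rose and 3 fell in siNS, 1 rose and 4 fell in siHP1γ and 1 rose and 4 fell in siPRMT5 cells, where 2.71%, 1.67% and 5.44% of all genes were called, with medians of log2 −0.36, −0.58 and −0.61. HP1γ depletion raised 8 of the 12 and lowered none with Eth, where 16.5% of all genes were higher and 15.2% lower. Among them were the stromelysin MMP3 (a fold of 2.46, adjusted p = 0.00637), the cyclooxygenase gene PTGS2 (log2 1.15, adjusted p = 0.00233), IL6 (0.96, adjusted p = 0.00879) and the adhesion molecule ICAM1 (0.88, adjusted p = 1.18e-05). With Dex MMP3 was at log2 2.08 (SE 0.464, adjusted p = 0.00168). MMP3 had few counts, 30 in siNS Eth, 81 in siHP1γ Eth, 12 in siNS Dex and 55 in siHP1γ Dex. With Dex HP1γ depletion raised 6 of the 12 genes and lowered 1, where 11.7% and 12.3% of all genes were higher and lower. This balance depends on the scaling, since 48.7% of all calls there were higher with TMM and 69.2% with library size alone. PRMT5 depletion raised 7 and lowered 2 with Eth, with the prostaglandin synthase PTGES at log2 2.76 (adjusted p = 1.23e-11), MMP9 at a fold of 4.31 (adjusted p = 4.56e-06), MMP1 at log2 −1.69 (adjusted p = 1.23e-11) and IL11 at −1.68 (adjusted p = 8.36e-12). With Dex it raised 5 and lowered 2, and 42.1% and 42.4% of all genes were called in these 2 comparisons.

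Chemokine and IL-1 transcripts carry AU-rich elements, through which proteins such as ZFP36 speed their decay. Of 8 genes for proteins that control RNA decay, Dex raised 3 in siNS cells, 1 in siHP1γ cells and 3 in siPRMT5 cells and lowered none, where 1.65%, 1.01% and 2.69% of all genes were higher. ZFP36L2, of the ZFP36 family, rose in each, from 48.2 ± 3.64 to 99.9 ± 8.23 CPM in siNS (log2 1.05, adjusted p = 1.41e-09), by log2 0.90 in siHP1γ (adjusted p = 8.18e-08) and by 1.86 in siPRMT5 cells (adjusted p = 7.78e-15). The ribonuclease gene ZC3H12A rose in siNS (log2 0.89, adjusted p = 0.00608) and siPRMT5 cells (1.04, adjusted p = 1.26e-04), and ZFP36 itself in siNS cells (0.83, adjusted p = 1.16e-05). HP1γ depletion raised 2 and lowered 3 with Eth, where 16.5% of all genes were higher and 15.2% lower. With Dex it lowered 4, where 12.3% of all genes were lower, with ZFP36L1 at log2 −0.80 (adjusted p = 1.75e-07). PRMT5 depletion raised 3 and lowered 2 with Eth and raised 3 and lowered 1 with Dex, where 42.1% and 42.4% of all genes were called. The decay factor KHSRP was lower by log2 −1.04 (adjusted p = 2.13e-11) and −1.09 (adjusted p = 6.04e-12).

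Most of the listed GR targets rose with Dex in each siRNA group. Of 7 genes, NR3C1 included, 5 were called higher in siNS, 5 in siHP1γ and 5 in siPRMT5 cells and none lower. Of all genes 1.65%, 1.01% and 2.69% were higher in these groups. The listed target ANXA1 did not rise, with log2 −0.19 in siNS (adjusted p = 0.0407), −0.06 in siHP1γ (adjusted p = 0.667) and −0.18 in siPRMT5 cells (adjusted p = 0.0435). TSC22D3, the gene of the anti-inflammatory protein GILZ, went from 19 ± 1.02 to 236 ± 36.7 CPM in siNS (log2 3.64, adjusted p = 2.14e-18), from 21.5 ± 0.258 to 134 ± 11.5 in siHP1γ (2.63, adjusted p = 1.30e-15) and from 42.9 ± 2.7 to 405 ± 37.9 in siPRMT5 cells (3.24, adjusted p = 1.55e-18). The MAP kinase phosphatase DUSP1 rose by log2 1.51 (adjusted p = 4.46e-14), 1.45 (adjusted p = 2.75e-13) and 2.73 (adjusted p = 5.40e-19) in the same order. NR3C1 averaged 148 ± 10 CPM in siNS Eth and 127 ± 4.61 in siNS Dex and was not called for Dex. It was higher in siPRMT5 Dex than in siNS Dex, by log2 0.31 (adjusted p = 0.0062).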

How the data were processed

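The 18 libraries came from MDA-MB-231 cells, 3 per condition. The sample labels gave the groups, and the study's text calls the replicates biological. The authors made libraries with a Lexogen kit for a NextSeq sequencer, mapped reads on hg38 with Bowtie2 2.4.2, which does not splice reads, counted them with HTSeq 0.9.1 and deposited raw counts per gene symbol, with 1 file per library. Read strand, read length and the annotation used for counting are not given in the sources used here, so no level of one gene was tested against that of another, and counts of different genes only describe the libraries. The authors also deposited a table of fold changes, p-values and pooled means of their own comparisons, made with DESeq2 2.11.40.7, which was not used here. The files held 0 unused per-sample columns.

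Counts were analysed in R 4.3.3 with edgeR 4.0.16 (with limma 3.58.1), tested on simulated counts first. Genes with too few counts were removed with filterByExpr over the 6 conditions, which left 15298, and library sizes were scaled by TMM. A quasi-likelihood model that estimated each condition's mean, leaving 12 residual degrees of freedom, gave 11 comparisons, with Benjamini-Hochberg adjustment over all genes tested. Dex comparisons were called at an adjusted p under 0.01 with a fold change of at least 1.5, and depletion and interaction comparisons at an adjusted p under 0.05. Standard errors were derived from each log2 fold change and its F value, and CPM are TMM-scaled. The 7 cytokines and the other gene lists were chosen with earlier results of these data known. From each other list, up to 4 called genes with the largest absolute log2 fold change and a mean of at least 1 CPM were named, besides NR3C1, TSC22D3, DUSP1, NFKBIA, IL1R1, the siRNA targets, cell markers, genes with few counts, neighbours on the chromosome and genes with a called interaction. The symbol IRAK4 was not among those of the count files, and this gene was not analysed. The symbol RIGI was absent too, but its gene was analysed under the older symbol DDX58.

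Alternatives for the cytokines and the counts of calls were DESeq2 1.42.0, its size factors in edgeR, library size alone, a block for the replicate number, no filter on low counts, a minimum of 10 counts per library, fits to the libraries of a comparison alone, other thresholds for Dex, and each library left out in turn. Gene positions came from the GENCODE annotation of hg38 and promoters from RefSeq, where IL1A had a second start that was not shown.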

Additional observations from a re-analysis of the deposited data

Results flagged for a closer look

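For 17 genes of the lists the response to Dex differed between depleted and siNS cells by the interaction test of edgeR (adjusted p under 0.05), which compares the log2 fold changes directly. Of the 80 genes considered, 4 were called for HP1γ depletion, where 0.399% of all genes were, and 13 for PRMT5 depletion, where 3.80% were. With 1 library left out, 20 to 186 and 319 to 897 of all genes were called. The CXCL8 call for HP1γ and the CXCL1 call for PRMT5 were each lost in 8 of 18 such fits, and the CXCL2 call for PRMT5 in 1. With HP1γ depletion, the response of CXCL8 differed by log2 0.73 (adjusted p = 0.0361), and the induction of 3 GR targets was smaller, with TSC22D3 at −1.0 (adjusted p = 0.00104), the clock gene PER1 at −0.75 (adjusted p = 0.0195) and the transcription factor KLF9 at −0.69 (adjusted p = 0.0229).

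With PRMT5 depletion, CXCL1 differed by log2 0.97 (adjusted p = 0.0393), CXCL2 by 1.64 (adjusted p = 0.0122) and IL1A by 0.73 (adjusted p = 0.00167). Among signalling genes, IRAK3 differed by 0.98 (adjusted p = 0.00169), BCL3 by −1.10 (adjusted p = 0.00988) and the calpain gene CAPN1 by −0.45 (adjusted p = 0.0179). Among inflammatory mediators, PTGES differed by −1.40 (adjusted p = 0.00364), MMP1 by 0.68 (adjusted p = 0.0305) and CSF1 by −0.38 (adjusted p = 0.0311). The decay factor ZFP36L2 differed by 0.81 (adjusted p = 3.50e-04), and the GR targets DUSP1 and FKBP5 by 1.22 (adjusted p = 7.96e-08) and 0.84 (adjusted p = 2.31e-05). PRMT5 itself differed by 0.57 (adjusted p = 0.0297), at the low levels left after its depletion. Groups of 3 libraries were not tested for single outlying samples, and causes were not tested.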

How the results depend on the processing

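Of 66 results for the tested cytokines 41 were called, 28 of these were called in every fit that tested the gene, 13 were lost in at least 1 fit and 3 other results gained a call, and none of the called values changed sign. The number of cytokines called with Dex at a fold change of at least 2 was 1 in siNS, 0 in siHP1γ and 1 in siPRMT5 cells. At an adjusted p under 0.05 alone it was 3, 3 and 4, with IL1B (adjusted p = 0.0306 in edgeR) added in siPRMT5 cells. Without a filter on low counts the HP1γ interaction called 2. With 1 library left out, the counts ranged from 1 to 3 for Dex in siPRMT5 cells, 2 to 4 for siPRMT5 against siNS with Eth, 0 to 1 for the HP1γ interaction and 1 to 4 for the PRMT5 interaction. Among all genes, the 61 called for the HP1γ interaction became 314 with DESeq2, 374 without a filter, 94 with the replicate block and 20 to 186 with 1 library left out, and the 582 for the PRMT5 interaction 319 to 897. The Dex counts of 414, 255 and 832 became 194, 106 and 373 at 2-fold and 1402, 849 and 2449 at an adjusted p under 0.05 alone. Scaling by library size alone raised the share of higher calls after HP1γ depletion from 52.1% to 63.8% with Eth and from 48.7% to 69.2% with Dex. At least 10 counts in every library removed CXCL2, so its calls have no value in that fit. The causes were not tested.

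The labels number replicates 1 to 3 in each condition, but nothing in them pairs the libraries. Deviations from the condition means correlated at r = −0.27 to 0.42 between libraries of the same number (median 0.01, over 0.1 in 12 of 45 pairs) and at −0.43 to 0.43 between others (median −0.01, over 0.1 in 14 of 90 pairs). Since not every pair of the same number was over 0.1, the block was not used in the main fit. With the replicate block 3, 3 and 3 cytokines were called for Dex in siNS, siHP1γ and siPRMT5 cells, and IL1B passed in the PRMT5 interaction (adjusted p = 0.0396), which then held 4, and no other call for the cytokines changed.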

Other observations

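Between the chemokine genes on chromosome 4, CXCL6, PF4V1, PF4 and PPBP were listed at 0 counts and CXCL5 had 8. Beyond CXCL2, within 300 kb, lie MTHFD2L, an enzyme gene of folate metabolism, and EPGN and EREG, which encode ligands of the EGF receptor. MTHFD2L, the nearest, was not called in any comparison. EPGN rose with Dex in siNS cells (log2 1.21, adjusted p = 4.44e-05) and siPRMT5 cells (1.86, adjusted p = 5.74e-05), with log2 0.48 (adjusted p = 0.236) in siHP1γ cells, and neither interaction was called (adjusted p = 0.203 and 0.361). It was lower than in siNS cells in siPRMT5 cells, by log2 −2.26 with Eth (adjusted p = 7.66e-07) and −1.61 with Dex (adjusted p = 2.25e-07), and in siHP1γ cells with Dex (log2 −1.23, adjusted p = 1.65e-05), with log2 −0.50 with Eth (adjusted p = 0.0951). EREG was higher in siPRMT5 cells by log2 0.68 with Eth (adjusted p = 8.84e-04) and with Dex (adjusted p = 4.21e-04). Next to the IL-1 pair, IL37, IL36G and IL36B had 14, 7 and 1 counts. On its other side 5 genes within 300 kb were tested and none was called for Dex. Of these CKAP2L, a gene of the mitotic spindle, was higher in siPRMT5 than in siNS cells, by log2 0.26 with Eth (adjusted p = 0.0253) and 0.38 with Dex (adjusted p = 0.00167). POLR1B, a subunit gene of RNA polymerase I, was lower in siPRMT5 cells with Eth (log2 −0.40, adjusted p = 5.01e-05), with log2 0.05 with Dex (adjusted p = 0.585). Its PRMT5 interaction was called (log2 0.45, adjusted p = 0.0082). In siPRMT5 cells POLR1B rose with Dex by log2 0.53 (adjusted p = 2.23e-06), which is under the 1.5-fold limit of a call. TTL, CHCHD5 and SLC20A1 were not called against siNS cells.

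Of 9 interferon-induced genes tested, 7 were lower in siHP1γ than in siNS cells with Eth and 4 with Dex and none higher, where 15.2% and 12.3% of all genes were lower, with medians of log2 −0.67 and −0.48 against 0.013 and 0.005 for all genes. The antiviral genes OASL (log2 −1.14, adjusted p = 3.30e-08), MX1 (−1.05, adjusted p = 0.00686) and IFIT1 (−0.96, adjusted p = 1.69e-10) were lower with Eth. In siPRMT5 cells 6 were higher and 1 lower with Eth, and 5 higher and 1 lower with Dex, with the RNA sensor IFIH1 at log2 1.43 (adjusted p = 6.00e-11) and 1.57 (adjusted p = 1.78e-11), and 42.1% and 42.4% of all genes were called there. For Dex, only DDX58 in siNS cells was called (log2 −0.81, adjusted p = 4.19e-08). IFNB1 was listed at 0 counts.

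Pearson's r of log2 CPM over the 18 libraries described which genes had the most alike levels among 11410 genes. For CXCL1 these were PIGC (r = 0.94), ELK3 (0.93) and CCDC122 (0.93), and for CXCL8 LINC00601 (0.96), SYTL2 (0.95) and PRLR (0.95). For IL1A they were BEND7 (0.97), MANCR (0.97) and KLHL23 (0.96), and for IL1B PLAU (0.93), MAST4 (0.91) and PHLDA1 (0.91). PLAU averaged 294 ± 22.1 CPM in siNS Eth, 143 ± 4.87 in siNS Dex, 407 ± 17.9 in siHP1γ Eth and 153 ± 10.6 in siHP1γ Dex. Between the cytokines r was highest for CXCL8 and IL1B (0.80) and lowest for CXCL2 and IL1B (0.12). The libraries share conditions, so these values only describe them.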
